A study of Mus musculus with 25 samples.

Results

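The account concerns 8 genes for potassium-permeable membrane proteins: the inward rectifier channels Kcnj2, Kcnj10 and Kcnj16, the voltage-gated channels Kcna1, Kcna2 and Kcna6, the calcium-activated channel Kcnn4, and P2rx7, a cation channel opened by extracellular ATP. They are 8 of the 23351 genes in the expression table. They were selected on measured values of the same libraries: Kcnj2 was chosen by its higher level at Day 15 against control, and P2rx7 and Kcna2 had been named for their Day 5 values. The differences of the 8 genes against control are therefore a description, given with no test.

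The libraries came from mouse oligodendrocyte precursor cells (OPC), the glial progenitors that give rise to myelin-forming oligodendrocytes, which were cut from brain sections by laser capture microdissection. The labels give 7 libraries from Day 15 of white matter stroke, 8 libraries from Day 5 of white matter stroke and 10 control libraries. Such a stroke cuts the blood supply of myelinated fibre tracts, and the sources used here give neither how it was made nor how cells were recognised for capture, nor the strain, sex and age of the mice (the labels give the day under a tag for age, read here as the day after stroke). No genotype or treatment other than the stroke is labelled, and the libraries are not tied to animals: any that share an animal would make p-values too small.

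Potassium channels let potassium flow down its gradient and hold the membrane potential of glia and neurons. Inward rectifiers of the Kir family keep the resting potential close to the potassium equilibrium and, in glia, take part in clearing potassium released by active axons. Voltage-gated Kv1 channels limit firing along myelinated axons and are also made by glial progenitors. Kcnn4 and P2rx7 are best known from microglia and other immune cells, where calcium and ATP signals open them.

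All values are RPKM, reads scaled to transcript length and library size, as deposited. Levels of different genes can thus be compared, but the number of reads behind a value is unknown and no counting interval can be given. Between 1749 and 5266 genes reached an RPKM of 1 in the Day 15 libraries, 2353 to 6592 in the Day 5 libraries and 1306 to 4320 in the controls. Day 5 libraries lay higher across the whole table: the median difference of the 4319 tested genes was 0.61 at Day 5 against control, 0.17 at Day 15 against control and -0.44 at Day 15 against Day 5, all on the log2(RPKM + 1) scale. Genes that reached 1 RPKM in 7 or more libraries were tested. Of the 8 genes, 6 passed this filter, P2rx7 with the fewest libraries at 1 or more (11 of 25). Kcnn4 reached 1 in 2 libraries and Kcnj16 in 0, so neither was tested.

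A pair of libraries stood apart for these genes. Control replicate 1 held by far the largest potassium channel signal: the RPKM of 95 potassium channel genes summed to 898 there, against 11.1 to 114 in the other controls, and 11 of those genes had their highest value of all 25 libraries in it. Day 15 replicate 9 held a Kcnj2 value of 74.3 RPKM, against 2.38 to 6.62 in the other Day 15 libraries. The main differences that rest on either are given with and without it.

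Kcnj2, which encodes the strong inward rectifier Kir2.1, was high in every Day 15 library and low in nearly every control. The start of the gene is shown because Kcnj2 is the member with non-overlapping groups. The line gives the 250 bases before its annotated start in RefSeq (build GRCm38.p6, chr11:111065914-111066163, plus strand), 5′ to 3′, and capitals mark GAGGAA or its reverse complement TTCCTC, the core motif of PU.1, the transcription factor of myeloid cells.

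Kcnj2: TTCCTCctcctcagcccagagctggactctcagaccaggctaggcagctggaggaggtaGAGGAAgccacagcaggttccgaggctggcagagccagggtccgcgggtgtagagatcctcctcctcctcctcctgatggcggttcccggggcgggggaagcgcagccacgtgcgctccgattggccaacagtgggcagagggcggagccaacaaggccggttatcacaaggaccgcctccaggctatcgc

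The core occurred 2 times, at 250 and 191 bases before the start. The AP-1 motif TGANTCA was not found in these letters. Both motifs were searched on both strands, and over all 32851 promoter windows of the same 250 bases GAGGAA was present in 23.3% and TGANTCA in 6.75%. RefSeq windows were found for 7 of the 8 genes (11 windows). Among the other members' windows GAGGAA had no match, and TGANTCA had 1 match, before a start of P2rx7. A match to such short letters describes the sequence and marks no binding site.

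In the Day 15 libraries numbered 2, 3, 5, 6, 7, 8 and 9, Kcnj2 stood at 5.90, 6.62, 4.05, 3.97, 2.38, 3.55 and 74.3 RPKM. In the Day 5 libraries its lowest, median and highest values were 0.18, 1.01 and 4.11 RPKM, and in the controls they were 0, 0.238 and 1.55 RPKM. Every Day 15 library lay above every control. This separation was shared by 3 of the 4319 tested genes (0.0695%), the others being Abcd2, a peroxisomal fatty acid transporter, and Sirpa, an inhibitory receptor of phagocytes. Because Kcnj2 was chosen by this contrast, nothing is read from that share.

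The Day 15 mean was 14.4 ± 26.5 RPKM (SD, n = 7), and 4.41 ± 1.57 RPKM (SD, n = 6) without replicate 9. The Day 5 mean was 1.6 ± 1.52 RPKM (SD, n = 8) and the control mean 0.433 ± 0.538 RPKM (SD, n = 10). Kcnj2 was 1 of 4 genes called at Day 15 against control, where 0.0926% of the tested genes were called by limma at an adjusted p under 0.05, and the call is what selected it. The difference was 2.49 on the log2(RPKM + 1) scale (SE 0.52), and 1.94 without Day 15 replicate 9. The direction was kept in 39 of 39 alternative settings, with differences of 1.94 to 4.23, while the call was kept in 14. These settings reuse the contrast that chose the gene and give it no independent support. In bulk samples such as these, a change in the number of cells of a type cannot be told apart from a change in RNA per cell.

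**Figure D1:**
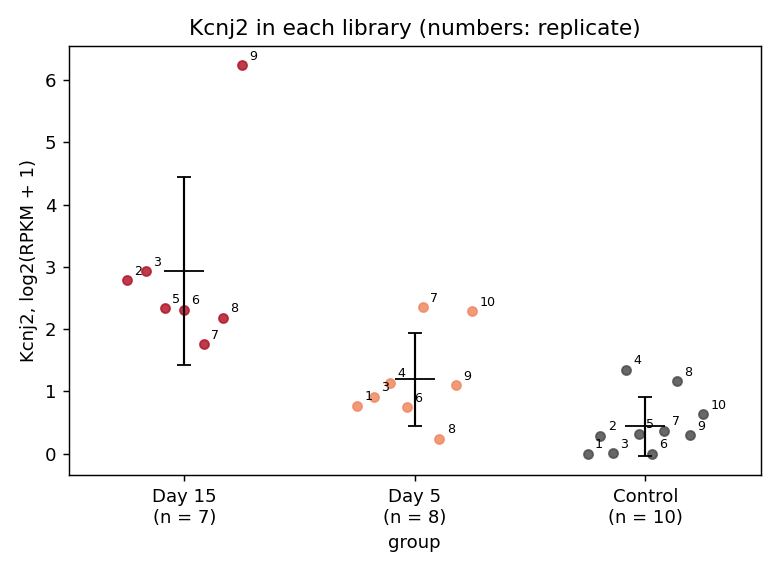
Kcnj2 in each of the 25 libraries, as log2(RPKM + 1) on the vertical axis, by group on the horizontal axis. Points are libraries with their replicate number, and the bar and whiskers give the mean and SD. All 7 Day 15 points lie above all 10 control points, and replicate 9 at 74.3 RPKM is far above the rest.

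Ranked within its own library, Kcnj2 was between position 18 and position 1586 of 23351 genes in the Day 15 libraries, and the best control position was 1599. Ranks separated Day 15 from control without overlap for 6 of the tested genes, Kcnj2, Abcd2, Man1c1 and Sirpa among them. These are ranks of the libraries that chose Kcnj2, so nothing is read from them either. Day 5 positions ran from 553 to 8880 and overlapped both other groups.

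At Day 5, Kcnj2 lay between the others. Day 5 replicates 7 and 10, at 4.11 and 3.90 RPKM, exceeded every control, and the other 6 libraries stood between 0.18 and 1.2 RPKM, inside the control range. The difference of Day 5 against control was 0.75 (SE 0.50), close to the median of all tested genes (0.61). It was 0.42, 0.50 and 0.29 under upper-quartile scaling, scaling to the same sum without Rn45s (the ribosomal RNA precursor) and quantile normalization. With 0.1 in place of 1 added before the log it was 1.83 (SE 0.85), and the median of all tested genes was not computed for that setting. At Day 15 against Day 5 the difference was 1.74 (SE 0.55), and 1.19 without Day 15 replicate 9, with 3 of 7 Day 15 libraries above every Day 5 library. Its limma adjusted p over all tested genes was 0.203, and it shares the Day 15 libraries by which Kcnj2 was chosen.

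The libraries carry numbers, and low and high numbers were looked at apart. Among numbers 1 to 6, Kcnj2 ran from 3.97 to 6.62 RPKM in 4 Day 15 libraries and from 0 to 1.55 RPKM in 6 controls. Among numbers 7 to 10, it ran from 2.38 to 74.3 RPKM in 3 Day 15 libraries and from 0.227 to 1.24 RPKM in 4 controls. Without replicate 9 the Day 15 libraries in the higher range stood at 2.38 and 3.55 RPKM. That the groups stayed apart in each range follows from their being apart as a whole.

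Microglia markers moved with the stroke groups too. Counts of called genes in this and the other lists stand beside the called shares of all tested genes, 0.0926% at Day 15 against control, 6.04% at Day 5 against control and 0% at Day 15 against Day 5. The RPKM of 12 microglia markers summed to 44.5 to 1650 in the Day 15 libraries (median 241), 80.7 to 665 in the Day 5 libraries (median 156) and 9.77 to 73.0 in the controls (median 25.5). At Day 5 against control 5 of the 12 passed and were higher (Trem2, Tyrobp and Ctss among them), with a median difference of 1.51, and at Day 15 against control 0 of 12 passed, as nearly all genes did not, with a median of 1.73. None of the 12 was at 0 in all libraries of a group. Macrophage and other leukocyte markers summed to 58.4 to 593 RPKM at Day 15, 160 to 2620 RPKM at Day 5 and 1.11 to 137 RPKM in controls. Of their 9 tested members, 8 passed and were higher at Day 5 against control, and 0 passed at Day 15 against control. Because so few genes of any kind passed at Day 15, the counts do not show that the markers differed between the days, and at Day 15 against Day 5 0 members of either list passed.

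Set side by side, the libraries had these values. Every Day 15 library exceeded 9 of the 10 controls in the microglia sum, and every one exceeded all 10 in Kcnj2. The exception was Control replicate 5, with a microglia sum of 73.0 RPKM and Kcnj2 at 0.25 RPKM, above the sums of 44.8 and 44.5 RPKM in Day 15 replicates 7 and 8, where Kcnj2 was 2.38 and 3.55 RPKM. Over all genes without Rn45s, RPKM summed to 34000 in Control replicate 5 and to 16800 and 11700 in Day 15 replicates 7 and 8. Neither the marker sums nor the Kcnj2 values were scaled to this library-wide level. Day 15 replicate 9, the highest for Kcnj2, had a microglia sum of 81.9 RPKM, and Day 15 replicate 5, the highest for the microglia sum at 1650 RPKM, had 4.05 RPKM of Kcnj2. At Day 5 every library exceeded every control in the microglia sum, and 2 of 8 did so in Kcnj2. Day 5 libraries also lay higher across the whole table, and these sums were not scaled for it. Day 5 replicate 6, lowest of its group at 80.7 RPKM, had an RPKM sum without Rn45s of 35400. Control replicate 9, with a microglia sum of 39.9 RPKM, had 10900. The part of microglia and other cells in the Kcnj2 level was not tested.

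**Figure D2:**
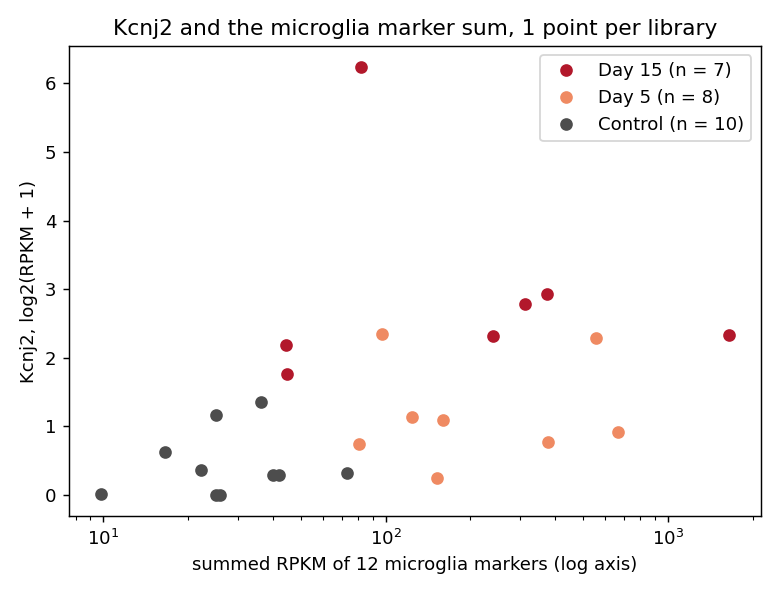
Kcnj2 as log2(RPKM + 1) against the summed RPKM of 12 microglia markers (log axis), 1 point per library, coloured by group. Day 15 points lie high over a wide span of microglia sums, from 44.5 to 1650 RPKM, and Day 5 points with sums of 80.7 to 665 RPKM lie mostly lower. Neither axis is scaled to the library-wide level.

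The 6 tested genes most like Kcnj2 over the 25 libraries, by Spearman rho of log2(RPKM + 1), were Ppt1 (0.68), a lysosomal thioesterase, Siglech (0.68), a microglial lectin, Adap2 (0.65), Man1c1 (0.65), Abcd2 (0.64) and Sirpa (0.64). With each library taken as its deviation from its group mean, Pearson's r with Kcnj2 was 0.06 for Ppt1, 0.03 for Siglech, 0.11 for Adap2, -0.23 for Man1c1, 0.20 for Abcd2 and -0.08 for Sirpa. Without Day 15 replicate 9, a comparison added after seeing the data, the values were 0.32, 0.07, 0.38, -0.07, 0.42 and -0.05 in the same order of genes. Sirpa had medians of 10.1, 8.26 and 0.505 RPKM at Day 15, at Day 5 and in controls. Siglech had medians of 2.36, 0.669 and 0.0419 RPKM in the same order. Sirpa was thus about as high at Day 5 as at Day 15 by its median, whereas Siglech, like Kcnj2, was lower at Day 5. These correlations are descriptive, since all 25 points share groups and libraries.

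Kcnj10 encodes Kir4.1, the main inward rectifier of astrocytes and oligodendrocyte lineage cells. It was the highest of the 8 genes by median in each group and the one detected most widely, at 1 RPKM or more in 25 of 25 libraries. In the Day 15 libraries numbered 2, 3, 5, 6, 7, 8 and 9 it stood at 1.18, 3.16, 7.16, 84.3, 16.4, 11.5 and 2.47 RPKM. In the Day 5 libraries its lowest, median and highest values were 1.30, 5.72 and 19.1 RPKM, and in the controls they were 1.55, 8.24 and 242 RPKM. All 3 groups overlapped over most of their range, and 1 library in each of the Day 15 and control groups was far above the rest.

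The control mean of Kcnj10 was 30.6 ± 74.5 RPKM (SD, n = 10) and 7.06 ± 3.13 RPKM (SD, n = 9) without replicate 1. The difference against control was -0.21 at Day 15 (SE 0.76) and -0.61 at Day 5 (SE 0.73). Without Control replicate 1 these were 0.29 and -0.10, and the Day 15 difference was also above 0 without Day 15 replicate 2 (0.13) or 9 (0.02), so its sign is not fixed. At Day 15 against Day 5 it was 0.39 (SE 0.80, limma adjusted p = 0.842), and -0.15 without Day 15 replicate 6. Upper-quartile scaling, the same sum without Rn45s and quantile normalization brought the Day 5 median of all tested genes to 0.10, 0.15 and -0.02. The Day 5 difference of Kcnj10 was then -1.49, -1.42 and -1.54.

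Astrocyte markers, from the other glia that make Kcnj10, summed to 24.1 to 344 RPKM at Day 15, 22.1 to 774 RPKM at Day 5 and 16.8 to 357 RPKM in controls, and 0 of 8 tested members passed in any comparison. Of the libraries highest for Kcnj10, Control replicate 1 had an astrocyte sum of 74.2 RPKM, near the control median of 61.3 RPKM, and Day 15 replicate 6 had 299 RPKM, second highest of its group. Day 15 replicate 6 also had the highest sum of 10 neuronal markers, 77.2 RPKM, against 1.66 to 77.2 RPKM over the Day 15 group and 4.64 to 20.0 RPKM in controls. The part of these cells in the Kcnj10 level was not tested.

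Kcnj16, which encodes Kir5.1, the partner that joins Kir4.1 in mixed channels, was listed at low values in every library. It ran from 0 to 0.437 RPKM at Day 15, from 0 to 0.604 RPKM at Day 5 and from 0 to 0.878 RPKM in controls. No library reached 1 RPKM, and the groups overlapped throughout. In RefSeq's gene order Kcnj16 is the protein-coding neighbour of Kcnj2, yet its medians of 0.0882 RPKM at Day 15, 0.295 RPKM at Day 5 and 0.109 RPKM in controls did not follow those of Kcnj2.

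**Figure D3:**
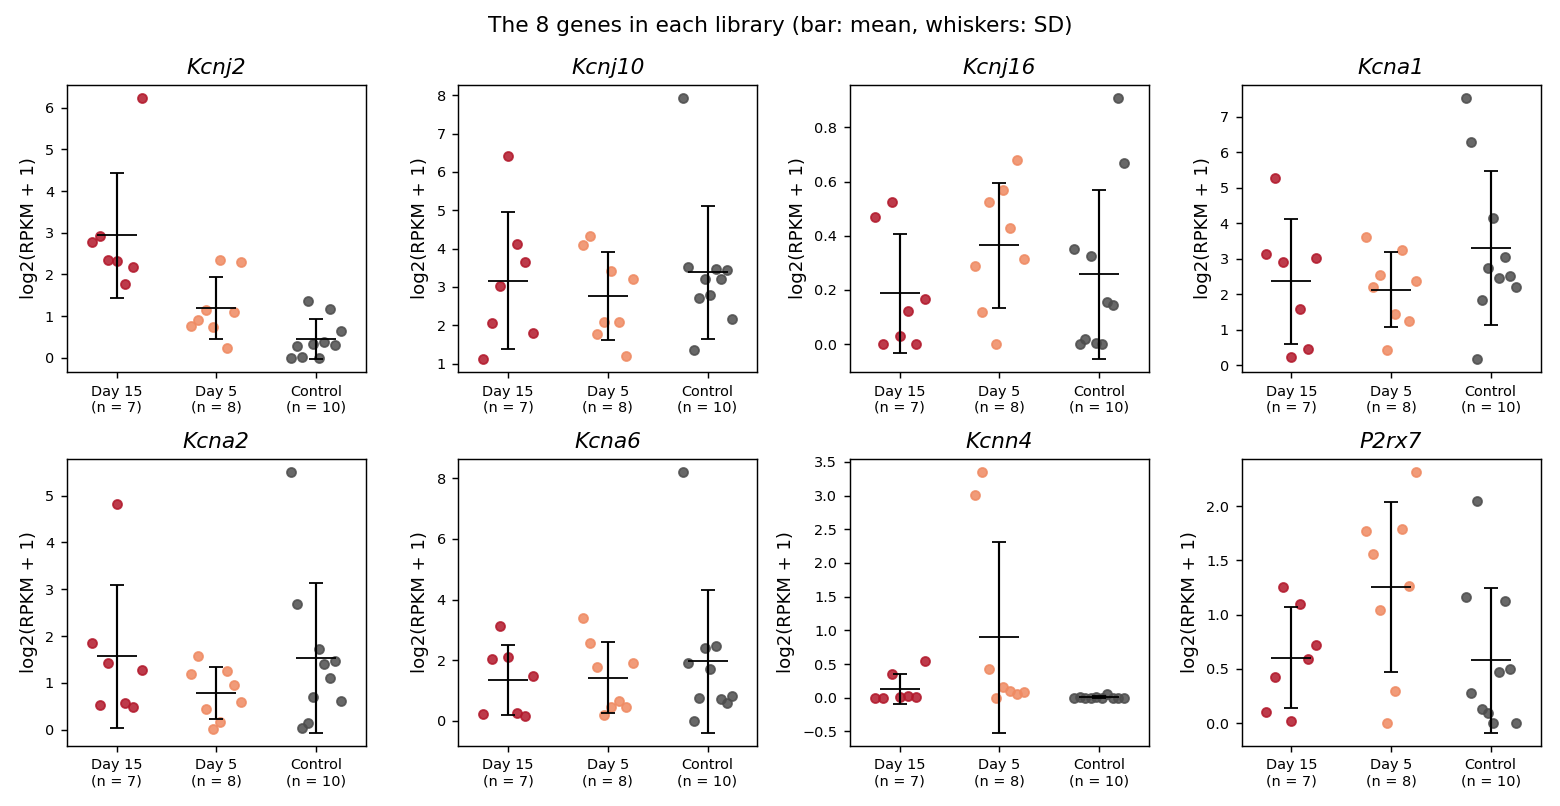
The 8 genes in each library as log2(RPKM + 1) on the vertical axes, by group on the horizontal axes, with 1 point per library and the mean and SD as bar and whiskers. Scales differ between panels. Day 15 and control points are apart for Kcnj2, while single high libraries stand out for Kcnj10, Kcna1, Kcna2 and Kcna6 and 2 Day 5 libraries for Kcnn4.

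Kcna1, which encodes Kv1.1, was the second highest of the 8 genes by median in each group. In the Day 15 libraries numbered 2, 3, 5, 6, 7, 8 and 9 it stood at 7.78, 37.5, 6.54, 0.173, 1.98, 0.373 and 7.21 RPKM. In the Day 5 libraries its lowest, median and highest values were 0.348, 3.90 and 11.2 RPKM, and in the controls they were 0.136, 5.19 and 184 RPKM. The groups overlapped from end to end, and the highest values belonged to Control replicates 1 and 2, at 184 and 76.6 RPKM. The difference against control was -0.92 at Day 15 (SE 0.79) and -1.16 at Day 5 (SE 0.76). Both kept their sign in every alternative that was run, at -0.45 to -1.45 for Day 15 and -0.48 to -2.74 for Day 5. Without Control replicate 1 they were -0.45 and -0.69. The alternatives reuse the same libraries, and none left out just Control replicates 1 and 2. By median, Day 15 at 6.54 RPKM lay above the controls at 5.19 RPKM, the reverse of the difference in mean log2 values. At Day 15 against Day 5 the difference was 0.24 (SE 0.83, limma adjusted p = 0.920), and -0.25 without Day 15 replicate 3.

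Kcna2 encodes Kv1.2, which assembles with Kv1.1 in the axon beside the node of Ranvier. In the Day 15 libraries numbered 2, 3, 5, 6, 7, 8 and 9 it stood at 2.62, 0.444, 1.68, 27.3, 0.477, 0.402 and 1.43 RPKM. In the Day 5 libraries its lowest, median and highest values were 0.0139, 0.717 and 1.99 RPKM, and in the controls they were 0.0223, 1.39 and 44.6 RPKM. Day 5 lacked the single high library that the others had, and the rest of the values overlapped. The difference against control was 0.03 at Day 15 (SE 0.60), negative under all 3 other scalings, and -0.76 at Day 5 (SE 0.58). Without Control replicate 1 these were 0.47 and -0.32, and without Day 15 replicate 6 the Day 15 difference was -0.52. Day 15 against Day 5 gave 0.79 (SE 0.63, limma adjusted p = 0.583), and 0.25 without Day 15 replicate 6. It was positive in 39 of 39 alternatives, the lowest at 0.0346. These reuse the same libraries and the Day 5 values for which Kcna2 had been named, and give no independent support.

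Kcna6 encodes Kv1.6, a Kv1 subunit present in glial progenitors as well as neurons. It had lowest, median and highest values of 0.123, 1.8 and 7.64 RPKM at Day 15, 0.158, 1.49 and 9.57 RPKM at Day 5 and 0.00949, 1.54 and 295 RPKM in controls. The medians were close and the groups overlapped, apart from Control replicate 1. The control mean was 31.1 ± 92.7 RPKM (SD, n = 10) with that library and 1.83 ± 1.71 RPKM (SD, n = 9) without it, beside a Day 15 mean of 2.33 ± 2.71 RPKM (SD, n = 7) and a Day 5 mean of 2.63 ± 3.25 RPKM (SD, n = 8). The differences were -0.62 at Day 15 against control (SE 0.73), -0.53 at Day 5 against control (SE 0.71) and -0.09 at Day 15 against Day 5 (SE 0.77, limma adjusted p = 0.972), the last positive under all 3 other scalings. Without Control replicate 1 the differences against control were 0.08 at Day 15 and 0.16 at Day 5, so both signs rest on that library.

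The high values of the Kv1 genes and Kcnj10 came together in Control replicate 1. Of 23351 genes ranked in that library, Kcna6 was at position 3 with 295 RPKM, Kcnj10 at position 4 with 242 RPKM, Kcna1 at position 10 with 184 RPKM and Kcna2 at position 63 with 44.6 RPKM. Potassium channel genes took 4.52% of its RPKM without Rn45s, and the control median was 0.201%. Its OPC marker sum was 14.7 RPKM, with 5.09 to 107 RPKM over the controls, and its neuronal marker sum was 7.68 RPKM, with 4.64 to 20.0 RPKM over the controls, both inside the range of the other controls. Its macrophage and leukocyte sum of 137 RPKM was the highest of the controls, and its myelin marker sum of 129 RPKM was the lowest. The part of these cells in the channel values was not tested. Kcna1 and Kcna6 are neighbours in RefSeq's gene order, and Kcna2 and Kcnj10 lie elsewhere.

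Outside that library the co-variation was weaker. Taken as deviations from the group means over 25 libraries, Pearson's r was 0.75 for Kcnj10 with Kcna2, 0.71 for Kcnj10 with Kcna6, 0.71 for Kcna2 with Kcna6 and 0.67 for Kcna1 with Kcna6. Without Control replicate 1, over 24 libraries, the same pairs had 0.56, 0.42, 0.40 and 0.47. For Kcnj2, r was -0.25 with Kcnj10, 0.03 with Kcna1, -0.19 with Kcna2 and -0.08 with Kcna6, and without Day 15 replicate 9 it was -0.15, -0.06, -0.26 and -0.17. All of these are descriptions, since the points share libraries and an unknown depth.

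**Figure D4:**
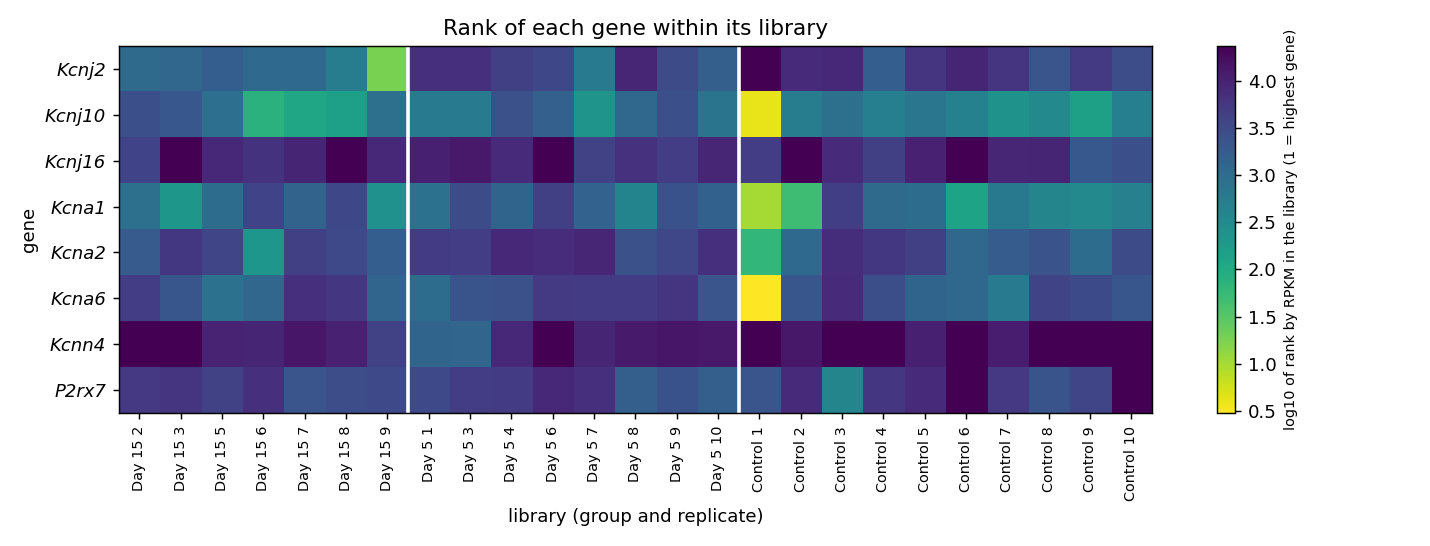
Rank of each of the 8 genes (rows) among all genes of its library (columns, ordered Day 15, Day 5, Control), as log10 of the rank, where yellow is a rank near the top. Kcna6, Kcnj10, Kcna1 and Kcna2 are bright together in Control replicate 1, and Kcnj2 is brightest in Day 15 replicate 9, at position 18.

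The genes most like each of these 4 by Spearman rho over the 25 libraries were Klhl7 (0.73), BC024659 (0.67) and Cd2ap (0.67) for Kcnj10, and Vps53 (0.72), Rnf157 (0.70) and Arhgap21 (0.69) for Kcna1. For Kcna2 they were Tmod2 (0.67), Xrn2 (0.65) and Rnf144a (0.61), and for Kcna6 they were Cspg5 (0.79), Tuba1b (0.77) and Crebbp (0.77). No gene was named for 2 members.

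Partners of Kcna1 and Kcna2 at the juxtaparanode, the stretch of myelinated axon where these channels cluster, did not pass in any comparison (0 of 4 tested, of 9 in the table), a count near the called shares of all tested genes (0.0926%, 6.04% and 0%). Cntn2, the adhesion molecule TAG-1, had medians of 0.358, 6.68 and 5.49 RPKM at Day 15, at Day 5 and in controls. Its difference was -2.0 at Day 15 against control (SE 0.83, limma adjusted p = 0.446) and -1.85 at Day 15 against Day 5 (SE 0.87, limma adjusted p = 0.313). Adam23 was at 0.81 at Day 5 against control (SE 0.50, limma adjusted p = 0.297). Myelin markers summed to 44.3 to 555 RPKM at Day 15, 93.2 to 1190 RPKM at Day 5 and 129 to 1280 RPKM in controls, with 0 of 9 tested members passing.

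Kcnn4, which encodes the intermediate-conductance channel KCa3.1, reached 1 RPKM in 2 libraries, both from Day 5. Day 5 replicates 1 and 3 stood at 7.07 and 9.23 RPKM, and the other 6 Day 5 libraries ran from 0 to 0.343 RPKM. Day 15 libraries ran from 0 to 0.453 RPKM, and controls from 0 to 0.0409 RPKM with 3 of 10 above 0. In all, 6 of 8 Day 5 libraries and 2 of 7 Day 15 libraries lay above every control, 4 of these Day 5 values being between 0.061 and 0.343 RPKM, and each group also held values at 0. The difference, untested because of the filter, was 0.13 at Day 15 against control, 0.89 at Day 5 against control and -0.77 at Day 15 against Day 5. Day 5 replicates 1 and 3 also had microglia sums of 377 and 665 RPKM and astrocyte sums of 254 and 774 RPKM, and OPC sums of 83.8 and 105 RPKM, both higher than in any other Day 5 library. Day 5 replicate 10, with a microglia sum of 559 RPKM, had 0.061 RPKM of Kcnn4. Over all genes, Day 5 replicates 1 and 3 had the highest RPKM sums without Rn45s of any library, 67700 and 69700. They also had the most genes at 1 RPKM or more, 5747 and 6592. The part of the marked cell types and of this library-wide level in the Kcnn4 values was not tested.

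P2rx7, the ATP-gated channel whose opening lets potassium leave the cell, had its highest median at Day 5. In the Day 15 libraries numbered 2, 3, 5, 6, 7, 8 and 9 it stood at 0.076, 0.345, 1.39, 0.016, 1.14, 0.506 and 0.651 RPKM. In the Day 5 libraries numbered 1, 3, 4, 6, 7, 8, 9 and 10 it stood at 2.42, 1.95, 1.06, 0.0023, 0.231, 2.45, 1.40 and 3.98 RPKM. In the controls its lowest, median and highest values were 0, 0.299 and 3.14 RPKM. Of the Day 5 libraries 5 lay above every Day 15 library, but replicates 6 and 7 were low, and Control replicate 3 exceeded all Day 5 libraries except replicate 10.

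The difference of P2rx7 was 0.02 at Day 15 against control (SE 0.38) and 0.68 at Day 5 against control (SE 0.36). The Day 5 value was near the median of all tested genes, 0.61, and it was 0.13 under upper-quartile scaling, 0.17 with Rn45s left out of an equal sum and -0.0033 after quantile normalization. With 0.1 in place of 1 added before the log it was 1.49 (SE 0.85). Day 15 against Day 5 gave -0.65 (SE 0.39, limma adjusted p = 0.441), beside a median of -0.44 over all tested genes. This contrast uses the Day 5 values for which P2rx7 had been named. Its most similar genes over the 25 libraries were Rapgef6 (Spearman rho 0.81), Map3k7 (0.77) and Wdr46 (0.76), and within groups Pearson's r was 0.76 with Rapgef6 and 0.79 with Map3k7.

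P2rx4, the adjacent gene and another ATP-gated channel, differed by 0.57 at Day 15 against control (SE 0.41, limma adjusted p = 0.735) and by 0.97 at Day 5 against control (SE 0.39, limma adjusted p = 0.107), and 0 of 2 tested P2X receptor genes passed in any comparison. Inflammasome genes, which act downstream of potassium efflux, were mostly too low to test, and 0 of 2 tested members passed. Casp1 had a difference of 1.01 at Day 15 against control (SE 0.65, limma adjusted p = 0.679), 0.55 at Day 5 against control (SE 0.63, limma adjusted p = 0.596) and 0.46 at Day 15 against Day 5 (SE 0.68, limma adjusted p = 0.779). Its medians were 0.228, 0.791 and 0.232 RPKM at Day 15, at Day 5 and in controls, beside a Day 15 mean of 32.7 RPKM. By median Day 15 was thus near control and below Day 5.

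**Figure D5:**
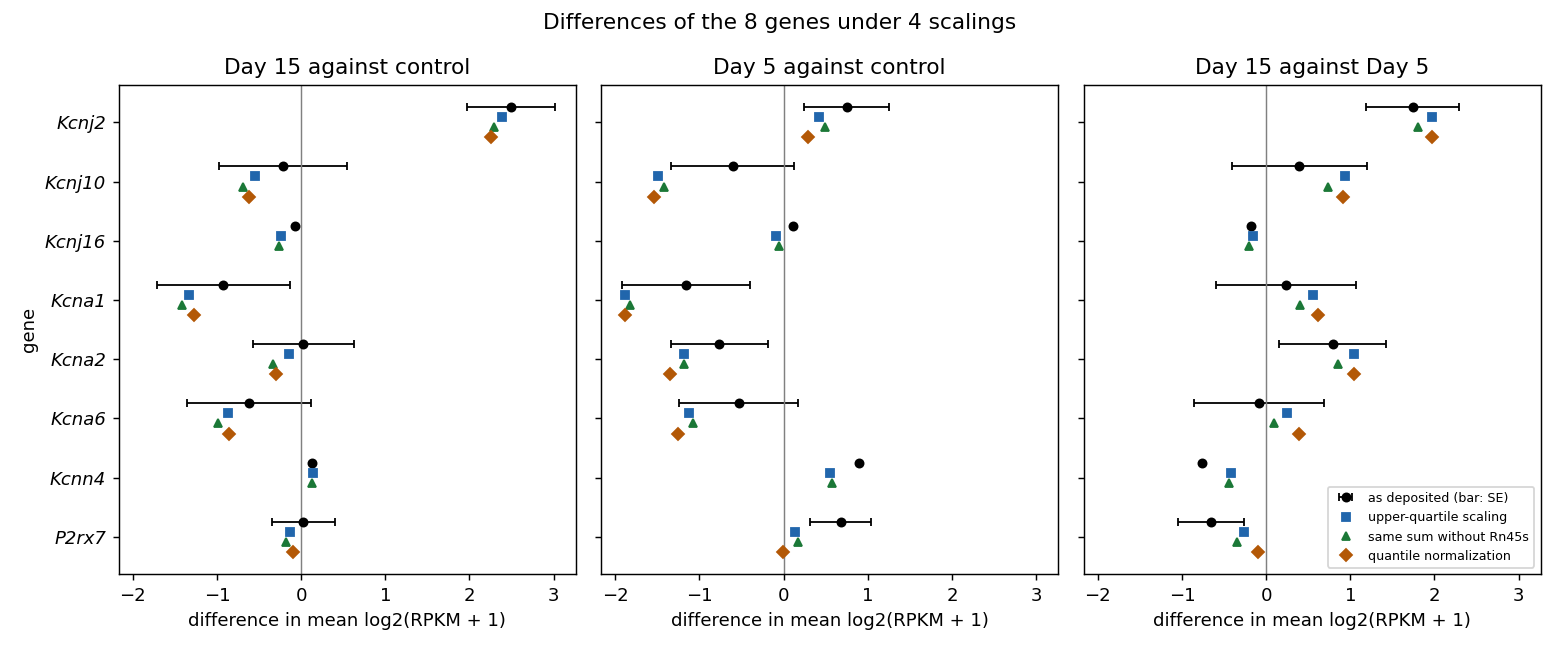
Differences in mean log2(RPKM + 1) of the 8 genes in the 3 comparisons, as deposited (black, with SE where the gene was tested) and after 3 other scalings of the libraries. Kcnj2 stays at 2.26 to 2.49 at Day 15 against control, while P2rx7 at Day 5 against control runs from 0.68 as deposited to -0.0033 after quantile normalization.

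The order of the 8 genes by median RPKM was similar in the 3 groups except for Kcnj2 and P2rx7. At Day 15 it ran Kcnj10, Kcna1, Kcnj2, Kcna6, Kcna2, P2rx7, Kcnj16 and Kcnn4. At Day 5 Kcnj2 was at place 5 and P2rx7 at place 3, and in controls Kcnj2 was at place 6 and P2rx7 at place 5. The ranges of neighbouring genes in the order overlapped in each group. Neighbours were not compared within libraries, so the order is a description.

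Most potassium channel genes were barely detected in these libraries. The table holds 95 of them with P2rx7, of which 48 never reached 1 RPKM in any library and 8 were tested: the 6 members above, Kcnma1 and Kcnip3. The tested genes were 2 of 15 inward rectifiers, 3 of 40 voltage-gated subunits, 0 of 14 two-pore channels, 1 of 8 calcium- or sodium-activated channels and 1 of 17 auxiliary subunits. Of the 8, Kcnj2 alone passed at Day 15 against control, where 0.0926% of tested genes were called. That call is what selected Kcnj2, so nothing is read from this count. At Day 5 against control 0 passed, where 6.04% of tested genes were called. At Day 15 against Day 5 0 passed, where the called share was 0%.

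The median difference of the 8 tested channel genes was 0.03 at Day 15 against control, -0.37 at Day 5 against control and 0.31 at Day 15 against Day 5. The medians of all 4319 tested genes were 0.17, 0.61 and -0.44 in the same order. All of the 8 but Kcnma1 and Kcnip3 are members selected on these values, so nothing is read from the contrast. Without Control replicate 1, Kcnj10, Kcna1, Kcna2 and Kcna6 differed by -0.10, -0.69, -0.32 and 0.16 at Day 5 against control. The median of the 8 without that library was not computed. Over all tested genes limma called 4, 261 and 0 in these comparisons, and 383, 1121 and 633 had an unadjusted p under 0.05. Kcnma1, the large-conductance calcium-activated channel BK, differed by 0.27 at Day 15 against control (SE 0.49, limma adjusted p = 0.934), 0.97 at Day 5 against control (SE 0.47, limma adjusted p = 0.184) and -0.70 at Day 15 against Day 5 (SE 0.52, limma adjusted p = 0.539). Kcnip3, a calcium-binding partner of Kv4 channels, had differences of 0.18, -0.21 and 0.39 with limma adjusted p of 0.970, 0.826 and 0.782.

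Pumps and cotransporters that move potassium against its gradient were better covered, with 8 of 11 tested, and 0 passed in any comparison. Atp1b3, a subunit of the sodium-potassium pump, had medians of 1.10, 15.2 and 3.18 RPKM at Day 15, at Day 5 and in controls, and its difference was -2.65 at Day 15 against Day 5 (SE 0.80, limma adjusted p = 0.193).

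The labelled cell type was present by its markers at modest levels. OPC markers summed to 10.4 to 50.9 RPKM at Day 15, 15.7 to 105 RPKM at Day 5 and 5.09 to 107 RPKM in controls. The OPC sum was below the myelin marker sum of the same library in all 25, and 0 of 7 tested members passed. In every Day 15 and every Day 5 library it was also below the microglia sum and below the macrophage and leukocyte sum. In controls the OPC sum was above these immune sums in some libraries and below them in others. Sums of different marker lists do not give shares of cells. Markers of endothelium summed to 0.257 to 29.4 RPKM at Day 15, 2.38 to 21.2 RPKM at Day 5 and 0.0245 to 23.4 RPKM in controls, and those of pericytes and smooth muscle to 2.00 to 42.4, 3.71 to 41.8 and 0.173 to 25.5 RPKM, with 0 of 3 tested members of either list passing. Neuronal markers ran from 1.66 to 77.2 RPKM at Day 15, 1.32 to 6.55 RPKM at Day 5 and 4.64 to 20.0 RPKM in controls, with 0 of 3 passing.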

How the data were processed

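RNA was measured in 25 laser-captured libraries, grouped by the condition and day in the labels. A Nugen Ovation kit amplified the cDNA and reads were paired, per the labels' protocols. Amplification of little RNA widens the spread between libraries and loses low transcripts. The tools named are STAR 2.1.4a, HTSeq and CASAVA 1.8.3, and the build is mm9, per the submitters' processing notes. The authors deposited RPKM per gene and library. Which reads and gene lengths it was scaled by, and the use of strand, is not given in the sources, so depth is unknown and overlapping genes are uncertain. All 25 columns were used (0 left out).

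Values were taken as log2(RPKM + 1), which understates the change of low genes. The 4319 genes that reached 1 RPKM in 7 or more libraries were fitted in 1 model of the 3 groups with limma 3.58.1 in R 4.3.3 (intensity trend, robust variance, two-sided). P-values were adjusted over all of them by Benjamini-Hochberg, and genes under 0.05 were called. Standard errors (SE) come from the moderated spread. P-values measure the spread between libraries, which may be technical.

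Named besides the 8 genes are the called genes of each gene list (at most 6) or its gene with the smallest p in each comparison, and the 6 genes most like Kcnj2 by Spearman rho (3 for each other tested member). Cell type markers are given as summed RPKM and counts. Some genes that fall to this rule are not reported here. The members, lists and markers were chosen with earlier results of these data known. Promoters came from RefSeq (GRCm38.p6), and no mm9 coordinates are given. Alternatives were other pseudocount, filters, scalings, covariates, weights and a replicate block, subsets of libraries, and leaving out each library. Tables and figures were made in Python 3.11.15.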

Additional observations from a re-analysis of the deposited data

Results flagged for a closer look

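Of 24 groups of member values examined on the log2(RPKM + 1) scale, 6 held a sample far from the others, where chance flags about 1 in 20 groups. That rate is for independent, normally distributed values. The groups share libraries and some hold many values at 0, so no excess over chance is read from the count. Kcnj2 stood at 74.3 RPKM in Day 15 replicate 9, and the next highest Day 15 library had 6.62 RPKM. Kcna2 stood at 27.3 RPKM in Day 15 replicate 6, and the next highest Day 15 library had 2.62 RPKM. In Control replicate 1, Kcna6 was at 294.9 RPKM, Kcnj10 at 242.5 RPKM and Kcna2 at 44.63 RPKM, and the next highest controls had 4.59, 10.5 and 5.47 RPKM. Kcnn4 was at 0.04092 RPKM in Control replicate 7, above a next value of 0.00794 RPKM, both close to 0.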

How the results depend on the processing

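The count of potassium channel genes called at Day 15 against control, 1 (Kcnj2), became 0 with no filter, with a mean RPKM of at least 1, with the same sum without Rn45s, after quantile normalization, with the compared groups alone, and in numbers 1 to 6 or 7 to 10 alone. Leaving out each library gave 0 to 1: the call was lost without any of the 10 controls, without Day 15 replicate 2 or 9 and without Day 5 replicate 1, 4, 7, 8, 9 or 10. This describes the call that chose Kcnj2 and is no independent support for it. The counts at Day 5 against control and Day 15 against Day 5 stayed at 0 under every alternative run. Kcnj2 kept its direction in all 3 comparisons under every alternative run. With a pseudocount of 0.1, the Day 5 differences against control of Kcnj2, P2rx7, Kcnn4 and Kcnj16 moved to 1.83, 1.49, 2.17 and 0.569. At Day 15 against Day 5, Kcna6 turned positive with upper-quartile scaling (0.251), the same sum without Rn45s (0.097), quantile normalization (0.392) and detected genes as a covariate (0.776), and Kcna1 turned negative in numbers 7 to 10 (-0.388) and with library weights (-0.0335). Kcnj10 was -0.371 without Day 5 replicate 4 and Day 15 replicates 5 and 6, reported as alike in an earlier analysis. Leaving out single libraries there gave -0.381 to 0.196 for Kcna6, -0.246 to 0.593 for Kcna1 and -0.147 to 0.735 for Kcnj10. The causes were not tested.

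Same-numbered libraries did not deviate together (correlations of -0.0573 to 0.0842), so the numbers are not taken as pairs. With the replicate block, Kcnj2 at Day 15 against control was 2.60, given as a description, with a count of 1, and Kcna6 at Day 15 against Day 5 was 0.389. RPKM without read numbers limits what can be said of genes near 0, such as Kcnj16 and Kcnn4.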
